A study of Bos taurus with 20 samples.

Results

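Matriptase is a serine protease anchored in the membrane of epithelial cells, and it is the product of ST14. Its main inhibitors are the Kunitz-type proteins encoded by SPINT1 (hepatocyte growth factor activator inhibitor type 1) and SPINT2 (the type 2 inhibitor), and prostasin, the product of PRSS8, is a protease that acts with it at the cell surface. These 4 genes were followed among the 22550 genes or transcripts of a bovine ovarian follicle transcriptome. They were selected on the measured difference between immature cumulus cells (CC) and those matured in vitro (IVM) for 4 h, in which ST14 stood high, so their values in that comparison are given as a description and with no test.

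Gene expression was measured on 20 one-colour arrays of Bos taurus RNA, with 4 arrays per group. The immature groups were theca cells (TH), granulosa cells (GC), CC, and oocytes (OO) of 3 to 6 mm antral follicles of slaughtered cattle, and the remaining group, CC_IVM, was CC detached after 4 h of IVM. No animals, lines, or treatments other than IVM are given in the labels, and the study describes the arrays of a group as biological replicates. The 4 CC_IVM arrays were all on 1 slide (slide 3), while the other groups each had replicates 1 and 2 on slide 1, and 3 and 4 on slide 2. Maturation and slide therefore cannot be told apart in any comparison of CC_IVM with CC. A gene expression value is the median log2 processed intensity of the spots of a gene, counted from the 75th percentile of its array, so that a difference of 1 is a fold of 2. A probe is called above background when the scanner software marked its spot as well above background. The number of arrays limits the precision. In cells collected in bulk, fewer cells of a type and less RNA per cell cannot be told apart.

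Between 49.3 and 68.8% of the probes were above background on an array, the lowest share being that of OO replicate 2, and no spot was saturated (0 spots). The 75th percentile of intensity was 284.5 to 395.9 on the CC_IVM arrays, 536.3 to 657.3 on the CC arrays, and 1521 to 2891 on the OO arrays. The labels were checked against markers. All 5 theca markers were above background on the 4 TH arrays, all 4 granulosa and cumulus markers on the 4 GC, 4 CC, and 4 CC_IVM arrays, and all 6 oocyte markers on the 4 OO arrays. The oocyte markers were also above background on the 4 CC arrays, at a summed linear level of 0.561 to 3.01 against 248 to 330 in OO (the sum of the markers' values off the log scale, where the 75th percentile of an array is 1). Of the theca markers 4 were above background on all 4 GC arrays too, at a summed level of 29.8 to 115 against 575 to 830 in TH, and 3 of the 4 granulosa and cumulus markers on all 4 TH arrays, at 18.1 to 33.4 against 110 to 450 in GC.

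Matriptase, hepatocyte growth factor activator, and urokinase belong to a cascade of proteases at the cell surface. Matriptase is made as an inactive precursor, is activated at the membrane, and is then blocked within a short time by the Kunitz inhibitors. Among its known substrates are the precursor of hepatocyte growth factor, urokinase-type plasminogen activator, and protease-activated receptor 2. It is best known from skin, intestine, and other epithelia, where prostasin and the inhibitors are made in the same cells.

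On the array ST14 had 4 spots, made of 2 probes of 60 bases that were each spotted on 2 places. The probes overlap by 57 bases and are offset by 3, so they measure nearly the same stretch of the transcript and are not independent readings of it. The first 30 bases of each are shown because every ST14 value rests on them, with the bases that the other probe also holds in capitals.
ST14 probe 1: ccaAGGGTGGGGTTCACTGTGTGTATTTGT
ST14 probe 2: AGGGTGGGGTTCACTGTGTGTATTTGTGTG

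SPINT1, SPINT2, and PRSS8 had 2 spots each, 1 for each of 2 probes that share no stretch. The probes of SPINT1 and of PRSS8 did not give the same picture of their genes, and their first 30 bases are shown so that the readings described for each can be told apart (lower case, since no part is singled out).
SPINT1 probe 1: ttgtacagagttcctttttgtttatttaat
SPINT1 probe 2: tccacacccactggagctcccttgtttcca
PRSS8 probe 1: aactgggctccaacatgcatctggggtggg
PRSS8 probe 2: tactgaagaaggactggctcagcacctcac
None of these probe sequences was on the array under another gene (0 probes). In the UMD 3.1 annotation of the files, ST14 spans chr29:36933306-36971367, SPINT1 chr10:36490427-36504314, SPINT2 chr18:48295716-48326272, and PRSS8 chr25:27485086-27489416. The files give the span of each transcript but not the exon or untranslated region in which a probe lies.

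ST14 was near the bottom of the measured range in immature CC and in the upper part of it after IVM. The gene expression value of ST14 in CC was −4.32, −5.18, −3.94, and −4.08 on replicates 1 to 4, and in CC_IVM it was 2.79, 3.98, 2.71, and 3.91. No array of either group came near the range of the other. The mean went from −4.38 ± 0.56 (SD, n = 4) in CC to 3.35 ± 0.69 in CC_IVM, a difference of 7.73 on the log2 scale (standard error 0.38), or 212-fold. With the standard error taken off or added, the fold was 162 or 276. It was the fifth largest rise among the 22550 genes, just below that of HAS2 (7.76), the hyaluronan synthase of the expanding cumulus. Only 8 genes rose by more than 7 and 136 by more than 4. All 4 CC_IVM arrays were above all 4 CC arrays for 29.1% of the genes of the array, ST14 among them, and this is a count that the choice of the gene already fixes.

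Before any scaling, the median intensity of the ST14 spots was 17.1 to 38.8 on the CC arrays and 1960 to 5140 on the CC_IVM arrays, although the latter arrays were dimmer as a whole. All 4 spots showed the rise, by 7.70 and 7.82 for the spots of probe 1 and 7.72 and 7.57 for those of probe 2. On CC replicate 2, the lowest array, 1 of the 4 spots was above background, and on the other CC arrays all 4 were. The fold therefore rests on CC values close to the background. With the deposited log2 table, in which the background was left in, the difference was 6.10, and after normexp background correction it was 5.99. Leaving out any 1 of the 8 arrays gave differences between 7.46 and 7.94, and the difference was 8.09 with the CC arrays of slide 1 only and 7.36 with those of slide 2 only.

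**Figure D1:**
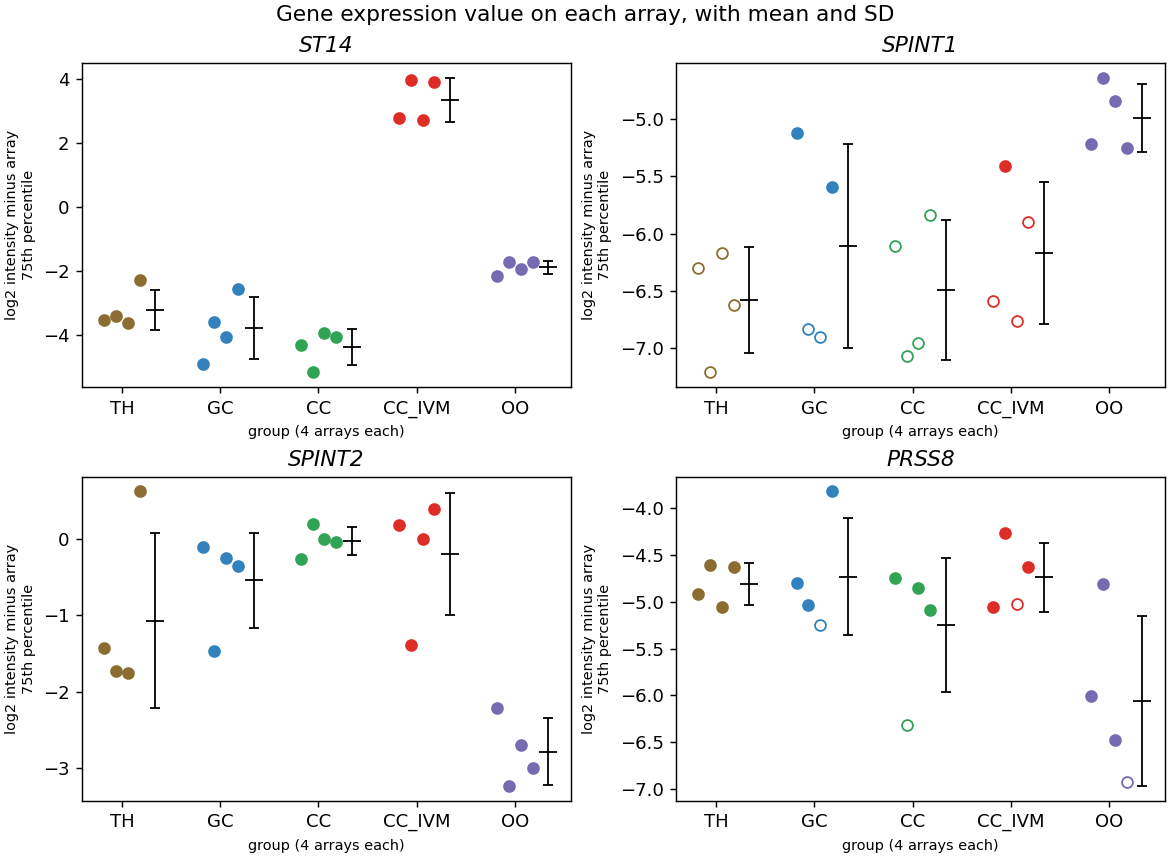
Gene expression value (log2 intensity minus the 75th percentile of the array, vertical axes) of ST14, SPINT1, SPINT2, and PRSS8 on each of the 20 arrays, by group, with replicates 1 to 4 from left to right. Filled points had at least 1 spot above background, open points had none, and the bars give the mean and SD of 4 arrays. The 4 CC_IVM arrays of ST14 lie between 2.71 and 3.98 and the 16 other arrays between −5.18 and −1.71.

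The inhibitors and prostasin did not show a difference of that size. SPINT2 was at −0.26, 0.19, 0.00, and −0.04 in CC and at 0.18, −1.39, 0.00, and 0.39 in CC_IVM, above background on every array. The groups overlapped, and the low value of CC_IVM replicate 2 set most of the spread in its group. The mean difference of SPINT2 was −0.18 (standard error 0.36), and without single arrays it lay between −0.38 and 0.21.

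SPINT1 was close to the background throughout the cumulus arrays. It was at −6.11, −7.07, −6.95, and −5.84 in CC, with no array above background (0 of 4), and at −6.59, −5.41, −6.76, and −5.90 in CC_IVM, with replicate 2 above background. The groups overlapped, with a difference of 0.33 (standard error 0.38; −0.03 after quantile normalization), and no fold can be given. PRSS8 was at −4.75, −6.32, −4.85, and −5.09 in CC and at −5.06, −4.26, −5.02, and −4.63 in CC_IVM, with 3 of 4 arrays above background in each. These groups overlapped too, with a difference of 0.51 (standard error 0.36). Genes that were not above background on any of the 8 cumulus arrays (4441 genes) had a median difference of 0.68 between CC_IVM and CC, against 0.05 over the 11891 genes above background on all 8. Neither SPINT1 nor PRSS8 is among these 4441 genes, since each was above background on at least 1 cumulus array. With the brightest probe their differences were 0.58 and 1.37. The part of the shift of dim genes in the SPINT1 and PRSS8 differences was not tested.

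**Figure D2:**
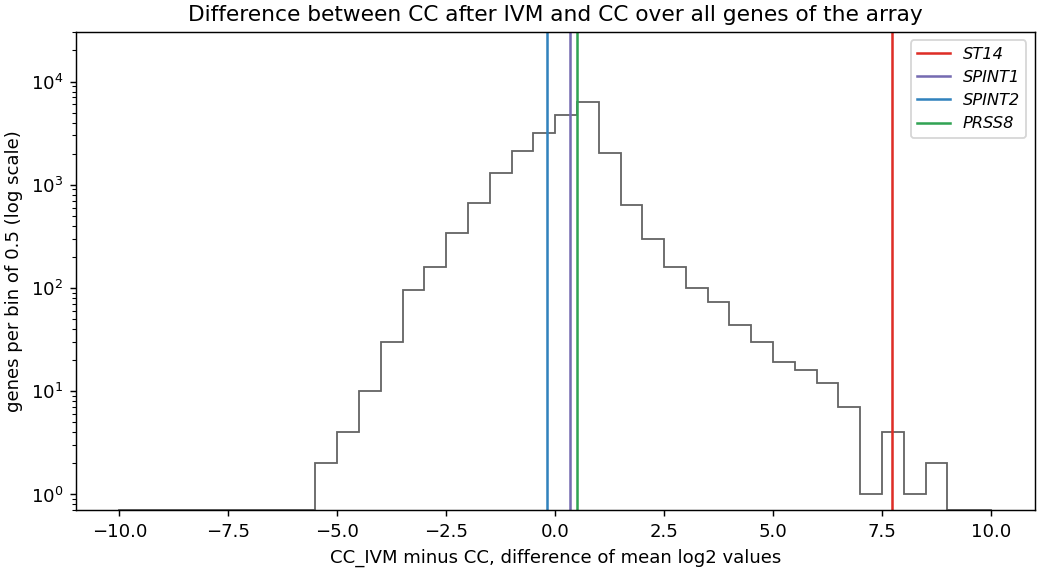
Number of genes (vertical axis, log scale) by the difference of mean log2 values between CC_IVM and CC (horizontal axis, bins of 0.5) over the 22550 genes of the array. Vertical lines mark ST14 at 7.73, PRSS8 at 0.51, SPINT1 at 0.33, and SPINT2 at −0.18, of which ST14 lies in the right tail and the others in the bulk of the distribution.

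The probes of PRSS8 moved in opposite directions between CC and CC_IVM. Probe 1 went from −5.88 ± 1.02 (SD, n = 4) in CC to −4.50 ± 0.35 in CC_IVM and probe 2 from −4.63 ± 0.53 to −4.98 ± 0.69. Probe 1 was above background on 1 CC array and 2 CC_IVM arrays, and probe 2 on 3 CC arrays and 1 CC_IVM array. The direction of PRSS8 after IVM is therefore not settled by these probes. In SPINT1 probe 1 was above background on none of the 8 cumulus arrays (0 of 8) and probe 2 on 1. The probes of SPINT2 were close in their group means, at −0.23 and 0.17 in CC and −0.39 and −0.01 in CC_IVM.

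**Figure D3:**
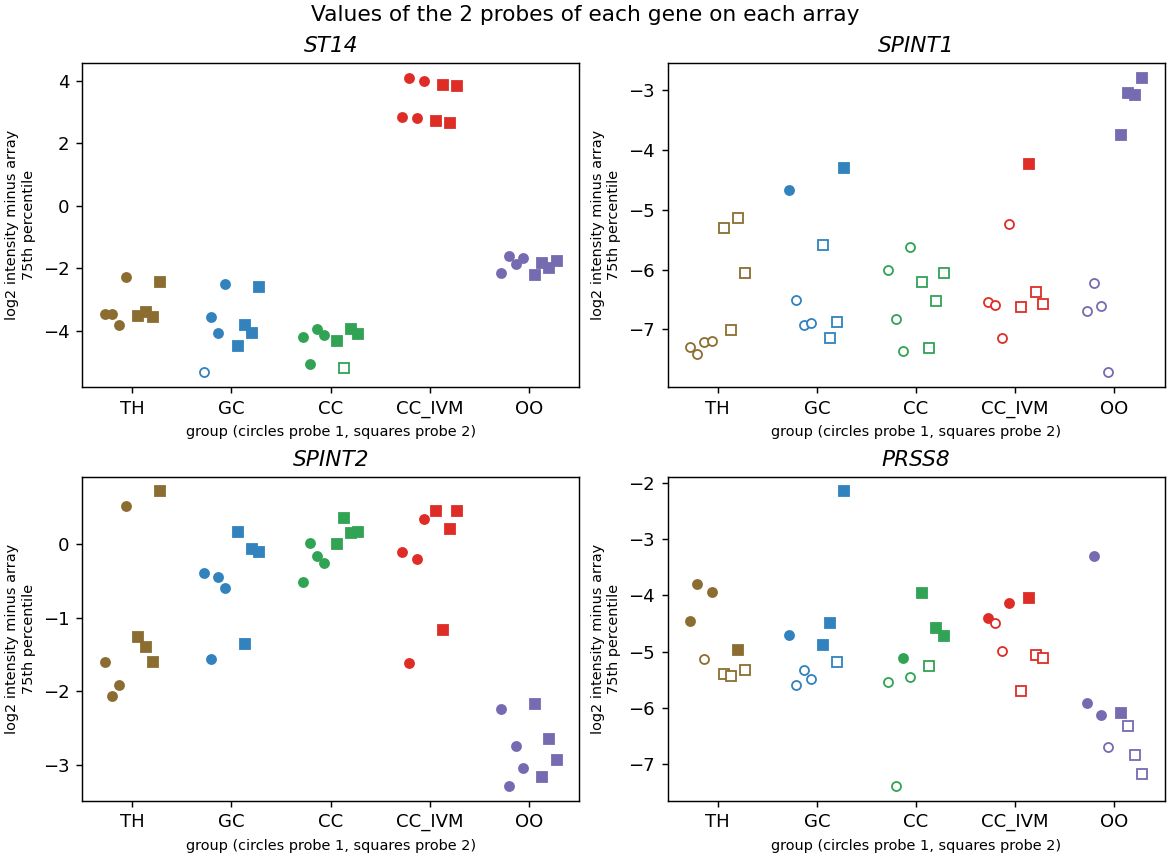
Values of probe 1 (circles) and probe 2 (squares) of each gene on each array, on the same log2 scale as the gene values, with replicates 1 to 4 from left to right within a group. Filled symbols were above background and open symbols were not. The probes of ST14 and SPINT2 run together, probe 2 of SPINT1 is above background on all 4 OO arrays while probe 1 is on none, and the probes of PRSS8 differ in most groups.

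The genes were selected on the CC and CC_IVM arrays and not on those of TH, GC, and OO. Differences among TH, GC, and OO were therefore tested with limma over all 22550 genes. The CC arrays entered this fit through the estimate of the spread, and earlier results of these data were known when the tests were chosen. TH and GC did not differ in any of the 4 genes after adjustment (0 of 4 called, and 0 of 4 with an unadjusted p below 0.05 or by an analysis of variance with Tukey's test). The latter is the kind of test in the study's methods, but it was run over TH, GC, and OO only, without CC. Over all genes 11.8% were called higher and 14.5% lower in TH than in GC. In OO all 4 genes were called against GC and all 4 against TH, ST14 and SPINT1 higher (SPINT1 lower after normexp correction) and SPINT2 and PRSS8 lower. The background in these comparisons was large, with 30.7% of all genes called higher and 37.9% lower in OO than in GC, and 32.5% higher and 32.1% lower than in TH. After normexp correction higher calls were 24.8% of all calls between OO and GC and 27.2% between OO and TH, against 44.7 and 50.3%, and they were 39.4% of those between OO and TH when the deposited values were used. Between TH and GC they were 45% of the calls, and 55.9% with the percentile over probes detected on all arrays. By the analysis of variance with Tukey's test over TH, GC, and OO, 3 of the 4 genes were called against GC and 2 of the 4 against TH.

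Among the cell types without maturation, ST14 was highest in the oocyte. It was at −2.17, −1.71, −1.93, and −1.74 in OO, at −3.53, −3.43, −3.63, and −2.29 in TH, and at −4.91, −3.61, −4.06, and −2.56 in GC. The OO arrays lay above every TH and GC array, while those of TH and GC overlapped. The mean of −1.89 ± 0.21 (SD, n = 4) in OO was 1.90 log2 units above that of GC (−3.79 ± 0.98; standard error of the difference 0.43, limma adjusted p = 0.0011), or 3.73-fold. It exceeded that of TH (−3.22 ± 0.62) by 1.33 (standard error 0.43, adjusted p = 0.013), or 2.52-fold. TH and GC differed by 0.57 (95% confidence interval −0.35 to 1.49, adjusted p = 0.40). By same-numbered arrays ST14 was higher in TH in 4 of 4 pairs, by 0.19 to 1.38, and with the replicate number as a block the adjusted p was 0.29 (limma).

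Within slide 2 the ST14 differences of OO were 1.48 from GC and 1.13 from TH and did not pass the threshold (limma adjusted p = 0.055 and 0.12), and after normexp correction they were 0.62 and 0.60. By Tukey's test the difference from TH did not pass either (adjusted p = 0.052). By group means the order of ST14 was CC_IVM, OO, TH, GC, and CC. In this order the difference between TH and GC did not pass the test, and the CC arrays, which were not tested against the others because they chose the gene, overlapped those of GC. The CC_IVM mean was 3.35, against −1.89 in OO, the next highest group.

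SPINT2 had its lowest values in the oocyte. It was at −2.21, −3.23, −2.69, and −3.00 in OO, at −1.43, −1.73, −1.75, and 0.62 in TH, and at −0.11, −1.46, −0.25, and −0.35 in GC. Every OO array was below every TH and GC array, and TH replicate 4 stood above all other TH and GC arrays. OO (−2.78 ± 0.44) was lower than GC (−0.54 ± 0.62) by 4.73-fold (log2 difference −2.24, standard error 0.45, limma adjusted p = 0.00042) and lower than TH (−1.07 ± 1.14) by 3.27-fold (−1.71, standard error 0.45, adjusted p = 0.0036). Within slide 1 the difference from TH was −1.14 and did not pass the threshold (adjusted p = 0.14). Between TH and GC the difference was −0.53 (interval −1.50 to 0.44, adjusted p = 0.46), but without TH replicate 4 it was −1.10 and passed (adjusted p = 0.017). By group means the order was CC, CC_IVM, GC, TH, and OO. In this order the arrays of CC, CC_IVM, GC, and TH overlapped those of the next of these groups, and all OO arrays lay below them.

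SPINT1 was called higher in the oocyte, but its probes gave different readings and the direction turned with the background correction. The gene value was −5.22, −4.64, −4.84, and −5.25 in OO, −6.30, −7.21, −6.17, and −6.62 in TH, and −5.12, −6.83, −6.90, and −5.59 in GC. All 4 OO arrays were above background, but none of the TH arrays (0 of 4) and 2 of the GC arrays were, and GC replicate 1 lay inside the OO range. The difference of OO was 1.12 from GC (standard error 0.40, limma adjusted p = 0.022) and 1.59 from TH (standard error 0.40, adjusted p = 0.0025), the latter with a bound of at least 1.23-fold. After normexp correction the same differences were −0.85 and −0.47, and with the deposited log2 table that from GC was 0.10 (adjusted p = 0.55). Without GC replicate 2, GC replicate 3, or OO replicate 3 the difference from GC was 0.88, 0.86, or 1.07 and missed the threshold (adjusted p = 0.076, 0.079, and 0.051).

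The call of SPINT1 in OO came from probe 2. That probe was at −3.17 ± 0.40 (SD, n = 4) in OO, above background on all 4 arrays, against −5.98 ± 1.31 in GC and −5.87 ± 0.86 in TH. Probe 1 was at −6.81 ± 0.64 in OO and above background on no OO array (0 of 4), with −6.25 ± 1.08 in GC and −7.28 ± 0.10 in TH. When the brightest probe alone stood for the gene, the differences of OO were 2.81 from GC and 2.71 from TH. TH and GC differed by −0.46 in the gene value (interval −1.32 to 0.39, limma adjusted p = 0.47). By group means the order of SPINT1 was OO, GC, CC_IVM, CC, and TH, and the last 4 groups overlapped.

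PRSS8 was low in every group, and its gene value was lowest in OO. It was at −6.01, −4.81, −6.48, and −6.93 in OO, −4.92, −4.61, −5.06, and −4.63 in TH, and −4.80, −5.04, −5.25, and −3.82 in GC. OO replicate 2, the array with the fewest probes above background, lay inside the ranges of TH and GC, so the groups overlapped. OO (−6.06 ± 0.91, SD, n = 4) differed from GC (−4.73 ± 0.63) by −1.33 (standard error 0.44, limma adjusted p = 0.015) and from TH (−4.81 ± 0.22) by −1.25 (standard error 0.44, adjusted p = 0.021). The median difference of OO over all genes, dim ones included, was −0.62 from GC and −0.42 from TH. Over genes above background on all arrays of both groups it was 0.19 and 0.32. The part of this shift in the PRSS8 differences was not tested. The probes did not give the same order. Probe 1 was at −5.51 ± 1.51 in OO, −5.28 ± 0.40 in GC, −4.33 ± 0.61 in TH, and lowest in CC (−5.88 ± 1.02), while probe 2 was lowest in OO (−6.61 ± 0.49), with −4.18 ± 1.38 in GC and −5.28 ± 0.21 in TH. With the brightest probe the differences were −0.24 and −1.18, and within slide 1 they were −0.49 and −0.64, none of which passed. The difference from GC was −1.03 without GC replicate 4 and −1.04 without OO replicate 4, that from TH was −1.11 without OO replicate 3 and −0.96 without OO replicate 4, and each of these missed the threshold. TH and GC differed by −0.08 (interval −1.02 to 0.87, adjusted p = 0.91). The order by means was GC, CC_IVM, TH, CC, and OO, and each group overlapped the next.

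**Figure D4:**
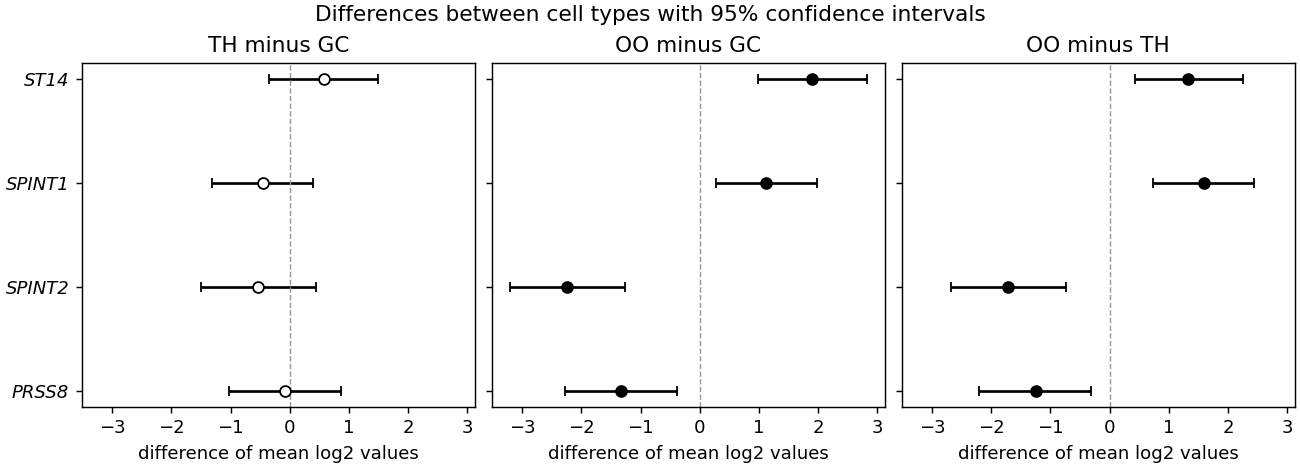
Differences of mean log2 values (horizontal axes) with 95% confidence intervals for ST14, SPINT1, SPINT2, and PRSS8 between TH and GC, OO and GC, and OO and TH (n = 4 arrays each). Filled points passed the threshold on the limma adjusted p. Against both GC and TH the oocyte is to the right of 0 for ST14 and SPINT1 and to the left for SPINT2 and PRSS8, though SPINT1 turned to −0.85 and −0.47 after normexp correction, and all 4 intervals between TH and GC include 0.

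The other genes around matriptase were taken from 4 lists, of membrane serine proteases, Kunitz and serpin inhibitors, substrates and their receptors, and epithelial regulators. Of 69 genes listed, 62 were found on the array. In CC_IVM against CC, 26 of the 62 (41.9%) were called higher and 2 (3.23%) lower by limma, beside 30.3% and 15.5% of all genes. The median difference over the 62 was 0.62, beside 0.37 over all genes. Higher calls were 66.1% of all calls in this comparison, 43.2% after quantile normalization, which brought the median difference of all genes to 0.01, and 83.4% after normexp correction. The number of calls among the 62 was 16 after quantile normalization, 54 after normexp correction, 44 with the deposited table, 14 with the CC arrays of slide 1 only, and 11 with those of slide 2 only, against 28 in the main analysis. Of the 26, 13 were above background on all 4 arrays of at least 1 group. A further 7 were above background on none of the 8 arrays, and among all such dim genes of the array 62.1% were called higher.

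Substrates and receptors had the most calls, with 11 of 22 (50%) higher and 2 (9.09%) lower, beside 30.3 and 15.5% of all genes. Of the 11, only 7 were above background on all 4 arrays of at least 1 group. The median difference over the 22 was 0.91. PLAUR, the urokinase receptor, went from −0.98 ± 1.16 (SD, n = 4) in CC to 3.93 ± 1.10 in CC_IVM, a rise of 4.91 (standard error 0.65, adjusted p = 0.00039). F2RL1, which encodes protease-activated receptor 2, was above background on the 4 CC_IVM arrays and on no CC array (0 of 4), at least 6.04-fold higher (adjusted p = 0.00022). MST1R, the receptor of macrophage-stimulating protein, rose by 2.47 (standard error 0.30, adjusted p = 0.00022). Urokinase itself, PLAU, was at 0.79 ± 0.15 in CC and 0.81 ± 0.53 in CC_IVM (adjusted p = 0.95). MET, the hepatocyte growth factor receptor, was above background on all 4 CC_IVM arrays and no CC array (0 of 4), at least 1.15-fold higher (adjusted p = 6.4e-05). The genes that fell were HGFAC, the hepatocyte growth factor activator, by 1.00 on the log2 scale (standard error 0.27, adjusted p = 0.016), and MST1, macrophage-stimulating protein, by 1.49 with overlapping arrays (standard error 0.53, adjusted p = 0.043). The call of HGFAC was lost after normexp correction (−0.17) and that of MST1 after quantile normalization (−1.47), and both were lost with the CC arrays of slide 1 only.

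Among the inhibitors 6 of 13 (46.2%) were called higher and none lower (0 of 13), beside 30.3 and 15.5% of all genes. Of the 6, only 4 were above background on all 4 arrays of at least 1 group. The median difference over the 13 was 0.64. TFPI2, a Kunitz inhibitor of plasmin and other proteases, rose by 2.97 (standard error 0.48, adjusted p = 0.0012), though it was above background on 1 CC array. SERPINA5, the protein C inhibitor, rose by 1.52 (standard error 0.25, adjusted p = 0.0015) and was above background on all 8 arrays. Of 17 other membrane serine proteases 6 (35.3%) were called higher, near the 30.3% of all genes. TMPRSS15 (0.97, standard error 0.23, adjusted p = 0.0094) was the only one of the 6 above background on any cumulus array. Of the 10 epithelial regulators 3 (30%) were called higher, the share being near the 30.3% of all genes, and none lower (0 of 10). GRHL1, a grainyhead-like transcription factor of epithelia, rose by 2.62 (standard error 0.25, adjusted p = 6.2e-05), and GRHL2 and KLF5 were above background on 3 CC_IVM arrays and no CC array (0 of 4). KLF5 lost its call after quantile normalization (adjusted p = 0.058) and TMPRSS15 with all 20 arrays in 1 fit (adjusted p = 0.092). PLAU, MET, MST1, SERPINA5, TMPRSS15, GRHL2, and KLF5 are named after their values were seen.

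**Figure D5:**
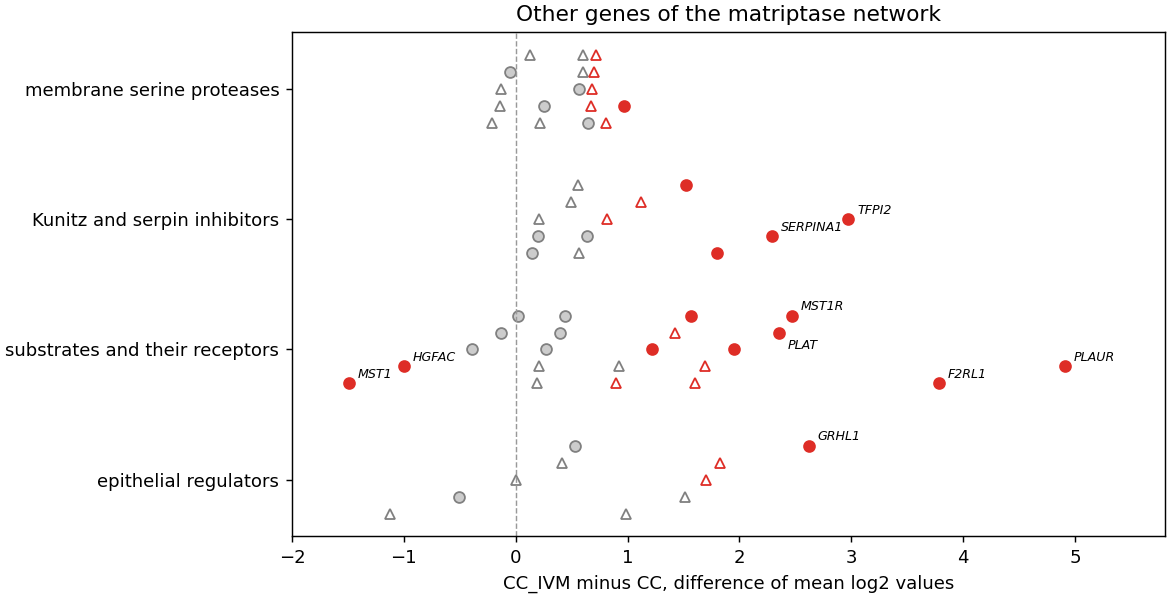
Difference of mean log2 values between CC_IVM and CC (horizontal axis) for the 62 genes of the 4 lists, 1 row of points per list. Red points were called by limma and grey points were not, circles were above background on all 4 arrays of at least 1 group, and triangles were not. The circle of PLAUR (4.91) lies farthest to the right, the next, F2RL1, had no CC array above background (0 of 4), so that its place is no exact difference, and only HGFAC and MST1 were called lower.

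In the oocyte 27.4% of the 62 listed genes were called higher and 35.5% lower than in GC, beside 30.7 and 37.9% of all genes. Of the 10 epithelial regulators 8 (80%) were called higher and 1 (10%) lower both against GC (median 4.83) and against TH (median 3.97), beside medians of −0.62 and −0.42 over all genes. Against TH, 32.5% of all genes were called higher and 32.1% lower. ESRP1, an epithelial splicing regulator, was at least 715-fold higher in OO than in GC (limma adjusted p = 8.1e-12), and EPCAM, an epithelial adhesion molecule and known matriptase substrate, at least 217-fold (adjusted p = 2e-12). MST1R was higher than in GC by 8.41 on the log2 scale (standard error 0.30) and GRHL3 by 6.70 (standard error 0.14), with 2 and 1 of the 4 GC arrays above background. Of the 13 inhibitors 7 (53.8%) were lower than in GC and 7 than in TH, beside 37.9 and 32.1% of all genes, and 2 (15.4%) were higher than in GC and 0 than in TH. The difference from GC was −8.64 for SERPINA5 (standard error 0.61), which was above background on 1 OO array, −5.13 for APP (standard error 0.33), whose protein has a Kunitz domain in some isoforms, and −4.94 for SERPINE2 (standard error 0.16). Of the 17 proteases 1 (5.88%) was higher and 4 (23.5%) lower than in GC, and of the 22 substrates and receptors 6 (27.3%) were higher and 10 (45.5%) lower. In TH against GC 11 of the 62 (17.7%) were higher and 6 (9.68%) lower, beside 11.8 and 14.5% of all genes, with TFPI2 higher in TH by 5.75 (standard error 0.46, 3 of the 4 GC arrays above background) and SERPINE2 lower, by −3.02 (standard error 0.16).

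Markers of cumulus cells and of other cells differed between CC and CC_IVM as well, beside 30.3% of all genes called higher and 15.5% lower. Among genes above background on none of the 8 arrays, 62.1% were called higher, with a median difference of 0.68. Calls of dim markers near that size are therefore not set apart from dim genes at large. The markers of cumulus expansion had a summed linear level of 0.973 to 2.81 on the CC arrays and 7.34 to 15.2 on the CC_IVM arrays, and 6 of 6 were above background on the 4 CC_IVM arrays against 3 of 6 on the 4 CC arrays. HAS2, TNFAIP6, AREG, and EREG were called higher, but PTGS2 and PTX3 were not (limma adjusted p = 0.93 and 0.86). Of the granulosa and cumulus markers FSHR (−1.25, limma adjusted p = 0.028), CYP19A1 (−1.26, adjusted p = 0.032), and AMH (−1.04, adjusted p = 0.018) were called lower in CC_IVM. INHBA was called higher (1.07, adjusted p = 0.0011). Leukocyte and macrophage markers were at 0.191 to 0.687 in CC and 0.835 to 2.11 in CC_IVM in summed level. Of these 5 genes CD14 (2.33, standard error 0.83, limma adjusted p = 0.043) and CD68 (2.15, standard error 0.37, adjusted p = 0.0019) were called higher in CC_IVM and were above background on all 8 arrays. PTPRC, which defines leukocytes, was called higher by 0.70 (standard error 0.21, adjusted p = 0.024) with no array above background (0 of 8), and CSF1R (adjusted p = 0.69) and CD163 (adjusted p = 0.44) were not called. Surface epithelium markers were at 18.2 to 34.5 in CC and 24.8 to 63.8 in CC_IVM. Of these 7 genes KRT19 (0.73, standard error 0.18, limma adjusted p = 0.012) and UPK3B (0.80, standard error 0.29, adjusted p = 0.045) were called higher and were above background on all 8 arrays. KRT7 (0.65, adjusted p = 0.031) and MSLN (0.63, adjusted p = 0.023) were called higher too, with 1 of the 8 arrays above background for KRT7 and 0 for MSLN, and KRT8, KRT18, and CDH1 were not called. Oocyte markers were at 0.561 to 3.01 in CC and 0.161 to 0.56 in CC_IVM. Of these genes ZP4 (−3.44, limma adjusted p = 0.015) and ZP2 (−3.17, adjusted p = 0.018) were called lower in CC_IVM. NLRP5 (−2.02, adjusted p = 0.028) and ZP3 (−1.24, adjusted p = 0.049) were called lower too, and GDF9 and BMP15 were not called (adjusted p = 0.20 and 0.67). Endothelium markers were at 0.0202 to 0.0345 in CC and 0.0492 to 0.115 in CC_IVM, none of the 3 being above background on all 4 arrays of either group (0 of 3), and HBB of red blood cells was at 0.00605 to 0.00927 and 0.00991 to 0.0364. The part of these cells in the ST14 values was not tested.

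The genes nearest to ST14 on chromosome 29 differed by less. No other transcript of the array overlapped its span (0). APLP2, 26.8 kb to the side of lower coordinates, differed by 0.64 between CC_IVM and CC (standard error 0.24, limma adjusted p = 0.051) and ZBTB44, 17.3 kb to the other side, by 0.24 (standard error 0.18, adjusted p = 0.30). Farther away, ADAMTS8 at 127 kb rose by 1.51 (standard error 0.24, adjusted p = 0.0012) and ZNF740 at 124 kb fell by 1.19 (standard error 0.26, adjusted p = 0.0063), though after normexp correction ZNF740 was at 0.03.

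The genes with the pattern most like that of ST14 over the 20 arrays were EIF2S2 (Pearson r = 0.971), KCTD12 (0.964), SUCLA2 (0.959), RAB1A (0.956), and GARS (0.956), among 13542 genes compared. Of these, EIF2S2 went from 3.84 in CC to 6.10 in CC_IVM and KCTD12 from −7.25 to −3.16. For SPINT2 the most alike were SDHB (0.942), PHKG2 (0.938), and MRPL24 (0.937), all with their lowest mean in OO. SPINT1 followed CACNB4 (0.833), SORCS1 (0.820), and KAT5 (0.817) less closely, and PRSS8 followed YJEFN3 (0.821), NGP (0.813), and ENO2 (0.811). The points of these correlations share arrays, groups, and scaling, so they are given as a description with no test.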

How the data were processed

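For each array the authors deposited the output of Agilent Feature Extraction 10.7.3.1, with intensity per spot (mean, median, and local background signals, and the software's background-subtracted processed signal) and marks of 0 or 1 for signal above background, saturation, and outliers. They also deposited a table of log2 values, which equals log2 of the median signal minus the median of the array within 5.0e-09, background left in. Probes of the 4 genes were found by gene name and samples grouped by title.

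Control and outlier-marked spots were left out (at most 23 per array). Of 61325 probes, 9779 had no gene name, of which 734 were named through a RefSeq accession. The limma package (version 3.58.1, R 4.3.3) was used for the fits (lmFit, then eBayes) of the 8 cumulus arrays and, as in the study's methods, of the 16 arrays of TH, GC, CC, and OO, with Benjamini–Hochberg adjustment over 22550 genes and a threshold of 0.05. A gene above background on no array of the dimmer group has its fold as a bound: the brighter group's mean is set against, on each array of the other group, the higher of the measured value and the lowest value above background. The 4 genes, the lists, and the tests were chosen with earlier results of these data known. Named list genes are up to 5 per direction with the largest called difference and no overlap between arrays, and for likeness the 5 closest genes for ST14 and 3 for the others, among genes above background on all 4 arrays of a group. Same-numbered TH and GC arrays deviated together (correlations of deviations from the group means 0.20 to 0.44), so these numbers were taken as pairs from the data. The labels give no pairing, and same-numbered arrays also share a slide, so a common source of the cells and the slide cannot be told apart. A replicate block left every call of the 4 genes between TH and GC as it was. Tested on simulated data with 200 changed genes among 22550, the cumulus comparison recovered 0, 78, and 95.5% at log2 changes of 1, 2, and 4, and that of OO with GC 24, 77, and 100%. In the data 10329 and 15465 genes were called in these comparisons. The adjusted threshold depends on how many genes change, so the recovered shares do not describe the sensitivity in the data. Alternatives were the scaling, background correction, deposited table, probe summary, a common fit of all 20 arrays, removal of dim genes, and slide and replicate blocks. Others were the eBayes settings, leaving out each array, and the methods' analysis of variance, here over TH, GC, and OO without CC. Its Tukey p-values were not adjusted over the genes and were used where the Benjamini–Hochberg adjusted analysis of variance passed 0.05. The slide as a random block, CC arrays of 1 slide only, and Tukey's pairs were added after the data were seen.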

Additional observations from a re-analysis of the deposited data

Results flagged for a closer look

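In ST14, TH replicate 4 was at −2.29, while the other TH arrays lay between −3.63 and −3.43, and in SPINT2 the same array was at 0.62 with the others between −1.75 and −1.43. Each was flagged because its gap to the nearest array took up more of the range of the group than Dixon's 95% critical value for 4 arrays allows. In 20 groups of arrays (4 genes in 5 groups) about 1 in 20 would be flagged by chance. Without this array the ST14 difference between TH and GC stayed below the threshold, and that of SPINT2 passed it at −1.10.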

How the results depend on the processing

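Of 686 alternative values of the results, 634 kept their direction and side of the threshold or stayed within the spread, and the cause of the changes was not tested. The number of genes called between CC_IVM and CC (10329) was 6377 after quantile normalization, 17714 after normexp correction, 6595 with the filter on dim genes, which tests fewer genes, 3710 and 3590 with the CC arrays of slide 1 or slide 2 only, and 6529 to 10989 when single arrays were left out, the lowest without CC replicate 1 and the next, 6597, without CC replicate 3. Calls among the listed genes (28) were 16, 54, 16, 14, and 11 under the same settings and 44 with the deposited table. Over all genes, 14769 were called between CC_IVM and CC with the deposited table and 15311 with the slide as a random block. These larger counts are among the 634 values. ST14 differed between CC_IVM and CC by 5.99 after normexp correction and by 6.10 with the deposited table, and PRSS8 by 1.37 with the brightest probe.

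Between TH and GC, 2264 and 2814 genes were called within slides 1 and 2 (5938 in all), and 8 listed genes within slide 1 (17). SPINT1 was at 0.10 with the brightest probe. PRSS8 was at 0.04 with the percentile over detected probes, 0.94 with the brightest probe, and 0.15 within slide 1, and without single arrays it lay between −0.25 and 0.22. SPINT2 lay between −1.10 and −0.31 without single arrays. Between OO and GC, 59 listed genes were called after normexp correction (39). ST14 was at 1.48 within slide 2. SPINT1 was at −0.85 after normexp correction, 0.10 with the deposited table, 1.05 and 1.20 within slides 1 and 2, 1.12 by Tukey's test (adjusted p = 0.065), and 0.86 to 1.45 without single arrays. PRSS8 was at −0.24 with the brightest probe, −0.49 within slide 1, and −1.75 to −1.03 without single arrays. Between OO and TH, ST14 was at 1.13 within slide 2 and 1.33 by Tukey's test (adjusted p = 0.052). SPINT1 was at −0.47 after normexp correction and at 1.82 and 1.35 within slides 1 and 2. SPINT2 was at −1.14 within slide 1. PRSS8 was at −1.02 with the array median, −1.18 with the brightest probe, −0.64 within slide 1, −1.25 by Tukey's test (adjusted p = 0.057), and −1.67 to −0.96 without single arrays.

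With the replicate number as a block, 7052 genes were called between CC_IVM and CC, where same-numbered arrays did not deviate together (correlations −0.22 to −0.03), and the block changed no call of the 4 genes among TH, GC, and OO. Values near the background limit SPINT1, PRSS8, and the CC values of ST14.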
